A study of Caenorhabditis elegans with 2 samples.

Results

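The genes described are the FLP and NLP neuropeptide genes of Caenorhabditis elegans, meaning every protein-coding gene named flp or nlp with a number in the WBcel235 annotation (the assembly also called ce11). There were 109 such genes among 19973 protein-coding genes, 31 named flp and 78 named nlp, which left 19864 other genes for comparison. Of the 109, 102 carry the name in Ensembl and 7 (nlp-10, nlp-88, nlp-89, nlp-90, nlp-91, nlp-99 and nlp-119) carry it as a RefSeq symbol only. The measurement was chromatin immunoprecipitation followed by sequencing (ChIP-seq) of eGFP-tagged DAF-12, a nuclear hormone receptor that binds dafachronic acids and directs the choice between dauer arrest and reproductive growth. The samples form 1 group of 2 biological replicates, each of whole L3 larvae of both sexes pooled, of strain OP222, genotype unc-119(ed3) III with the transgene wgIs222 targeting daf-12. Both replicates carry the unc-119 allele and the transgene, the antibody is labelled daf-12, and no second strain, stage or treatment was measured. Where the tagged protein is expressed and whether the native daf-12 gene remains are not given in the sources used here.

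FLP and NLP genes encode precursor proteins that are cut by convertases into short peptides, packed into dense-core vesicles and released to act on receptors, mostly G protein-coupled. FLP peptides share a C-terminal RFamide motif, whereas NLP is a collective name for peptides of many families, and several nlp genes are expressed in the epidermis and encode antimicrobial peptides rather than transmitters. DAF-12 acts in endocrine, epidermal, gonadal and nervous tissue, so peptide genes are among the places where its binding can be asked about. Because whole larvae were used, a site bound strongly in few cells and a site bound weakly in many cannot be told apart.

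The sequences shown are 101 bases around the summit of the best pooled region for 5 neuropeptide genes, given because they belong to the best-ranked members whose region recurred in both replicates, so that the DNA under the values described further on can be read. All are on the + strand of ce11, and capitals mark a copy of the hexamer AGTACA, known as a half-site of DAF-12 response elements, which among these windows occurred in that of nlp-70 only. The nlp-33 window is V:11147989-11148089, between genes and past the 3′ end of nlp-33. The nlp-45 window is X:2336951-2337051, in an intron of T01B6.1 beyond the end of nlp-45. The nlp-76 window is X:12665246-12665346, upstream of nlp-76 in an intron of nhr-17, and its summit lies inside an annotated tRNA gene. The nlp-70 window is V:273258-273358, between genes and upstream of nlp-70. The flp-6 window is V:9472375-9472475, with its summit in an intron of flp-6.
nlp-33: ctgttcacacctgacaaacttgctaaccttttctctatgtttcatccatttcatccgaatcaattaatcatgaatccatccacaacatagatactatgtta
nlp-45: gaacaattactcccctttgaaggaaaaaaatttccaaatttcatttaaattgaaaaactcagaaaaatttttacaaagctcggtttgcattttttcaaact
nlp-76: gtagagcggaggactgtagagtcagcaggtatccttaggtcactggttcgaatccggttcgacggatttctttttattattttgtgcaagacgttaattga
nlp-70: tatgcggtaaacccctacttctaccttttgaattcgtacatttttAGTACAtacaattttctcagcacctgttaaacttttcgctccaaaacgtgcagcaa
flp-6: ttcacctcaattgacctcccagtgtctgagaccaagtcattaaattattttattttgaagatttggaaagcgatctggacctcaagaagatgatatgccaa

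Few neuropeptide genes lay near a strong DAF-12 region, and how their share compared with that of other genes depended on the rank cut-off and on the window searched. Each of the 3 relaxed lists (replicate 1, replicate 2 and both pooled) holds 30000 regions, true peaks and background together, so presence in a list is not a called site. Regions were ranked by the authors' signal value, 1 being the strongest, and each gene took the strongest region whose summit lay inside it or within 2000 bp of one of its annotated starts. Pooled signal ran from 9.1 to 178, with 33.5 at rank 150, 21.6 at rank 1000 and 15.9 at rank 5000. Replicate 1 ran from 4.79 to 78.9 and replicate 2 from 5.8 to 102. The scale of these values is not given in the sources used here, so they are read mainly by rank within a list. Log2 ratios of the replicates' signals are given as descriptions on the authors' scale, and can differ in order from the ranks. The 150 strongest pooled regions are also the authors' list of reproducible peaks, made by the irreproducible discovery rate (IDR) method. A peak on that list need not rank alike in the 2 replicates. At nlp-33, which is on it, the ranks were 2209 in replicate 1 and 80 in replicate 2.

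Within pooled rank 150 lay 1 of the 109 neuropeptide genes (0.917%), beside 0.881% of other genes. Within rank 500 the count was 5 (4.59%, other genes 2.79%), and no further member was added by rank 1000 (4.59%, other genes 5.25%). Within rank 2000 it was 9 (8.26%, other genes 10%), within rank 5000 it was 29 (26.6%, other genes 23.1%), and within rank 10000 it was 49 (45%, other genes 40.1%). Over the whole list of 30000 regions, 89 members (81.7%) had a region, beside 77.8% of other genes. The difference between members and other genes was -0.66 percentage points at rank 1000 and 3.5 percentage points at rank 5000. The direction of both differences turned under another assignment of regions to genes: the difference was -2.08 points at rank 5000 with a window of 500 bp, and 1.02 points at rank 1000 with a region given only to the gene of nearest start. Against other genes of like searched length the differences were 0.78 points at rank 1000 and 8.6 points at rank 5000 (26.6% against 18%). There the other genes were limited to the members' quartiles of searched length (4001 and 4261 bp), whereas all 109 members were kept. Members with longer windows, such as nlp-15 (9245 bp) and flp-18 (8374 bp), thus still counted. At rank 5000 a window of 5000 bp gave 7.25 points and the autosomes alone 5.26. At rank 1000 the difference was -1.78 points in replicate 2 alone, -0.78 in replicate 1 alone, -2.45 with a window of 500 bp and -2.25 without X. The median best rank was 11940 for members and 13388 for other genes, counting a gene with no region as ranked after the last one. In the single replicates 29 members lay within rank 5000 of replicate 1 and 29 within rank 5000 of replicate 2. No p-value accompanies these shares, since neighbouring genes share regions and genes are not replicates.

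**Figure D1:**
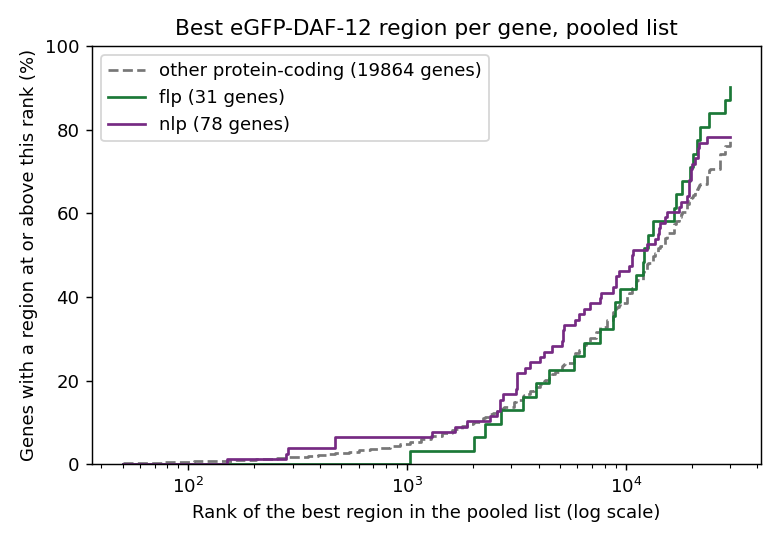
Share of genes (y axis, percent) whose best pooled region ranks at or above the rank on the x axis (log scale), for 31 flp genes, 78 nlp genes and 19864 other protein-coding genes. The nlp line steps up at rank 150 and lies above the dashed line of other genes past rank 5000 (for nlp 46.2% against 40.1% at rank 10000), and the flp line leaves 0 only at rank 1031.

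Few members ranked high in both replicates. A best region within rank 1000 in each replicate was held by 1 member (0.917%), beside 1.37% of other genes. The corresponding count at rank 5000 was 10 members (9.17%), beside 8.37% of other genes and 5.2% of other genes of like searched length. Only 1 of these 10, nlp-45 (0.917% of members, other genes 1.84%), had the best summits of both replicates within 100 bp of each other. In the other 9 the summits of the replicates lay from 168 bp apart, at nlp-33, to 4161 bp apart, at nlp-18. Across the 74 members with a region in both lists, the log2 signals of the replicates correlated with Pearson's r = 0.13 and Spearman's rho = 0.06. For 12797 other genes the values were 0.29 and 0.16. These are descriptions across genes, each point being the strongest of several regions in one window, and genes are not independent replicates.

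**Figure D2:**
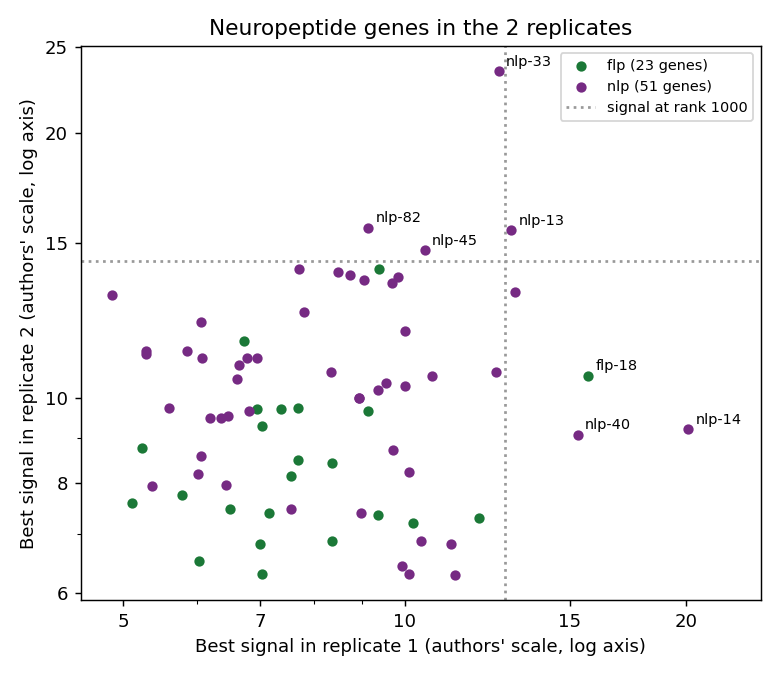
Best signal of each neuropeptide gene in replicate 1 (x axis) and replicate 2 (y axis), both on the authors' scale and on log axes, for the 23 flp and 51 nlp genes with a region in both lists; dotted lines mark the signal at rank 1000 in each replicate. Of the labelled genes nlp-13 alone lies beyond both lines, nlp-33 is the highest in replicate 2 (23.5) and nlp-14 in replicate 1 (20.1).

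The strongest region near a neuropeptide gene was that of nlp-33, one of the epidermal antimicrobial-type nlp genes (V:11147346-11147737, + strand). Its summit at V:11148039 lay between genes, 693 bp downstream of the start and past the end of this short gene, and no other annotated start was nearer. The pooled signal was 33.5 at rank 150, which made it the last-ranked of the 150 IDR peaks and the sole neuropeptide gene among them. At that summit replicate 1 gave 10.9 (rank 2209) and replicate 2 gave 23.5 (rank 80). Replicate 2 was the higher by rank as well as by value, with a log2 ratio of replicate 1 to replicate 2 of -1.10, the widest of the 14 members within pooled rank 5000 for which the ratio could be taken. With a window of 500 bp nlp-33 was no longer assigned this region, and no member remained within rank 150.

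The region of nlp-40 ranked 280, with a pooled signal of 27.8. nlp-40 encodes an intestinal peptide that drives the enteric muscle contraction of the defecation cycle. Its summit lay 1886 bp downstream of a start, past the 3′ end of the gene. Replicate 1 had a region there with signal 15.3 (rank 378), whereas replicate 2 had none within 100 bp, and its best region for the gene was 9.08 (rank 9392), 6691 bp from that of replicate 1. At the limit of 100 bp the nlp-40 region was thus found in 1 of the 2 replicates.

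nlp-14, which encodes orcokinin-like peptides and is among the sleep-linked genes of the ALA neuron, held the region closest to a start among the 5 members within rank 1000. Its summit at X:8919471 lay 48 bp upstream of the gene's start, with a pooled signal of 27.7 (rank 285). Replicate 1 gave 20.1 (rank 134), the highest signal of any member in that replicate. In replicate 2 no region lay within 100 bp, and the best for the gene was 9.21 (rank 8898), 293 bp from the best summit of replicate 1. As at nlp-40, a region lay within 100 bp of the pooled summit in replicate 1 only.

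Both other members within rank 1000 had a region in each replicate, and in both the summit lay in an intron of another gene. The nlp-45 summit (X:2337001) lay 1309 bp downstream of the nlp-45 start in an intron of T01B6.1, with a pooled signal of 24.9 (rank 467), 10.5 in replicate 1 (rank 2723) and 14.7 in replicate 2 (rank 859). The nlp-76 summit (X:12665296) lay 1393 bp upstream in an intron of nhr-17, a nuclear hormone receptor gene, with a pooled signal of 24.9 (rank 470), 8.73 in replicate 1 (rank 6156) and 13.8 in replicate 2 (rank 1203). The nlp-76 region was the 1 of 28 distinct member regions within rank 5000 (3.57%) whose summit fell inside an annotated tRNA gene, beside 17 of all 5000 pooled regions (0.34%). That feature was looked up after the sequence had been seen. In both genes replicate 2 was the higher, by log2 ratios of -0.48 and -0.66.

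The 3 members just inside rank 1000 (nlp-14, nlp-45 and nlp-76) had pooled signals of 24.9 to 27.7, and the 3 just outside had 19.6 to 21.5. flp-13 followed at rank 1031 with a pooled signal of 21.5, 9.14 in replicate 1 (rank 5125) and 9.66 in replicate 2 (rank 7383). Its summit (IV:7696941) fell in the UTR of flp-13 itself, 1479 bp from the start. nlp-70 ranked 1294 with 20.6 pooled, 7.79 in replicate 1 and 12.5 in replicate 2, its summit lying 371 bp upstream of the start. nlp-4 ranked 1659 with 19.6 pooled, 8.49 in replicate 1 and 7.09 in replicate 2, and the start of F59C6.18 was nearer its summit than its own. At flp-13 the log2 ratio was -0.08, while by rank replicate 1 stood higher. flp-13 was the best-ranked flp gene in the pooled list.

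**Figure D3:**
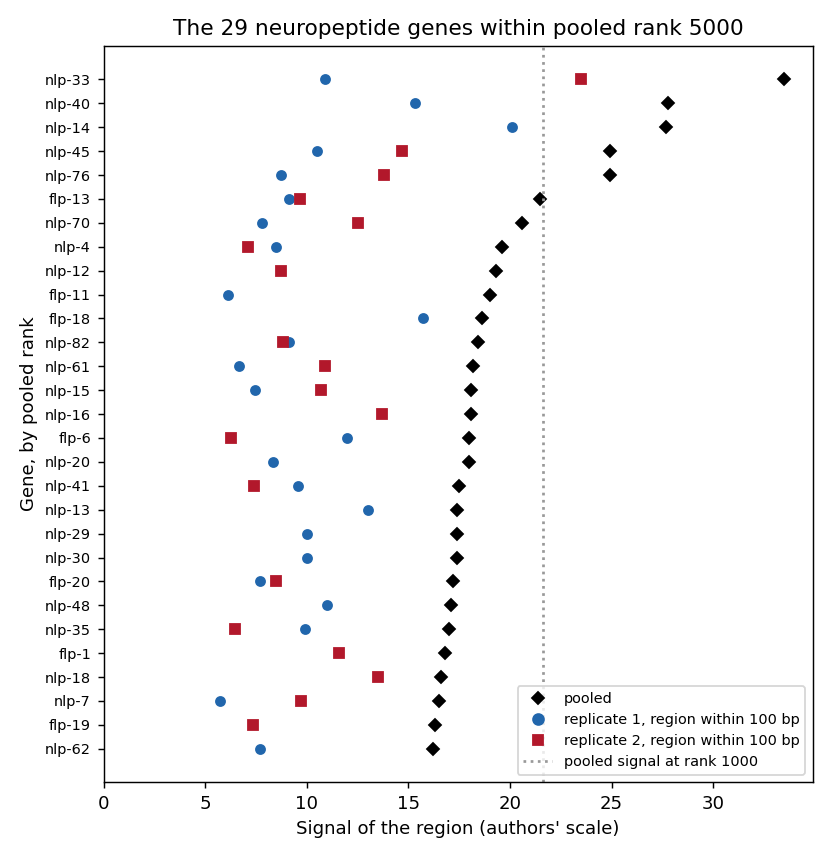
Signal (x axis, authors' scale) of the best pooled region of the 29 neuropeptide genes within pooled rank 5000, ordered by rank, with the region of each replicate where its summit lay within 100 bp of the pooled one. The dotted line is the pooled signal at rank 1000 (21.6); 5 genes lie to its right, and nlp-33 (33.5) is the highest. A missing circle or square means that no region of that replicate had its summit within 100 bp of the pooled one. When 200 bp was allowed, both replicates had a region at 23 rather than 14 of these summits.

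Of the 29 members within pooled rank 5000, 14 (48.3%) had a region of both replicates within 100 bp of the pooled summit, 10 had one of replicate 1 only and 5 one of replicate 2 only. The share among other genes within that rank was 49.1%. Among the 14, the log2 ratio of the replicates had a median of -0.32 with SD 0.60, and 1 exceeded a 2-fold difference (nlp-33). For other genes the median was -0.21 with SD 0.66. After nlp-33 the widest ratios were those of flp-6 and nlp-7. flp-6 (rank 2695, pooled signal 18) had 12 in replicate 1 and 6.29 in replicate 2, a log2 ratio of 0.93, at a summit in its own intron 450 bp from the start. nlp-7 (rank 4209, pooled signal 16.5) had 5.7 in replicate 1 and 9.71 in replicate 2, a log2 ratio of -0.77, at a summit 1729 bp upstream. The replicates thus differed in opposite directions at these genes.

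nlp-13 was the member found within rank 1000 in both replicates. Its best region had a signal of 13 in replicate 1 (rank 926) and 15.5 in replicate 2 (rank 614). The summits lay 216 bp apart, and the best pooled region of the gene, at V:4234597, ranked 3181 with a signal of 17.4. That summit lay 1821 bp upstream of the gene's start, near the edge of the window searched. The pooled rank was thus lower on the list than the rank in either replicate.

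flp and nlp genes were compared by their counts. Within pooled rank 1000 lay 0 of the 31 flp genes and 5 of the 78 nlp genes (6.41%), beside 5.25% of other genes. Within rank 5000 there were 7 flp genes (22.6%) and 22 nlp genes (28.2%), and over the whole list 28 flp genes (90.3%) and 61 nlp genes (78.2%). The median best rank was 12126 for flp and 10744 for nlp genes. In replicate 1, 6 flp genes (19.4%) and 23 nlp genes (29.5%) lay within rank 5000, and in replicate 2 these were 4 (12.9%) and 25 (32.1%). The difference between the families was not tested.

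Neuropeptide genes are frequent on the X chromosome, which held 35 of the 109 (32.1%, 13 flp and 22 nlp) but 13.6% of other genes. X also held 21.1% of all pooled regions, so members were read against genes of the same chromosome. On X, 3 of the 35 members (8.57%) lay within pooled rank 1000, beside 7.08% of other X genes, and 9 (25.7%) within rank 5000, beside 31.6%. On the autosomes 2 of 74 members (2.7%) lay within rank 1000, beside 4.96% of other autosomal genes, and 20 (27%) within rank 5000, beside 21.8%. The members therefore stood above the other genes at 1 cut-off and below at the other, in opposite order on X and autosomes.

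Neuropeptide genes linked to sleep-like quiescence or arousal in C. elegans had mixed ranks. All 7 matched genes had a pooled region (other genes 77.8%), and 3 lay within rank 5000 (42.9%, other genes 23.1%), namely nlp-14, flp-13 and flp-11. flp-11, the sleep peptide of the RIS neuron, had a pooled signal of 19 (rank 2013) at X:4676538, in a coding exon of tmem-135. Replicate 1 gave 6.13 there. The best replicate 2 region of flp-11 was 9.74 (rank 7167), with its summit at X:4676641, just beyond the limit of 100 bp. nlp-8, which acts in ALA, ranked 5176 with 15.8. nlp-22, a peptide of the RIA neuron that promotes quiescence during moulting, ranked 15452 with 11.9 pooled, while its best region in replicate 2 was 11.2 (rank 3805). flp-24, likewise of ALA, ranked 21843 with 10.5, and flp-2, which acts in arousal, ranked 28480. In both replicates 0 of the 7 lay within rank 5000, beside 8.37% of other genes, a count too small to be read as a difference.

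The 11 antimicrobial-type nlp genes, most of them on chromosome V, included nlp-33 as described and 3 members in all within rank 5000 (27.3%, other genes 23.1%). In replicate 1, 5 of the 11 lay within rank 5000 (45.5%, other genes 23.4%), and in replicate 2 there were 3 (27.3%, other genes 23.3%). The other 2 of the pooled list were nlp-29, induced by fungal infection and wounding, and its neighbour nlp-30. They share a single region at V:3982862 with a pooled signal of 17.4 (rank 3183), 1563 bp upstream of nlp-29 and 882 bp downstream of the nlp-30 start. Replicate 1 gave 10 there (rank 3428), and replicate 2 had no region within 100 bp. nlp-31 shared with nlp-34 a region of signal 13.3 (rank 10675). In all, 8 members shared 4 regions in pairs, so these genes do not give separate measurements.

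Other well-studied ligands lay further down the list. flp-18 and flp-21 encode ligands of the receptor NPR-1, which sets aggregation and foraging behaviour. flp-18 ranked 2273 with a pooled signal of 18.6 at X:3013672, in its own intron 614 bp downstream of a start, where replicate 1 gave 15.7 (rank 324). The best region for flp-18 in replicate 2 was 10.6 (rank 5035), and the best summits of the replicates lay 250 bp apart. flp-21 ranked 8729 with 14 pooled, and its best region in replicate 2 was 14 (rank 1120).

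nlp-12, the cholecystokinin-like peptide gene of the DVA neuron, ranked 1886 with 19.3 pooled. Its summit at I:1845093 lay 107 bp from the start of tag-96 and 1709 bp from its own, with 8.73 in replicate 2 (rank 10728) and no replicate 1 region within 100 bp. The best replicate 1 region of nlp-12 was 9.72 (rank 3937), with its summit at I:1844971, 114 bp from that of replicate 2. flp-1, an RFamide gene of the AVK interneurons, ranked 3873 with 16.8 pooled. Its summit lay 75 bp from the start of daf-10, an intraflagellar transport gene, and 1573 bp from its own, with 11.6 in replicate 2 (rank 3268). nlp-47, which encodes a gonadotropin-releasing-hormone-like peptide, ranked 7648 with 14.5 pooled and had 12.8 at that summit in replicate 2 (rank 1947). At nlp-12 and flp-1 the region was thus closer to another gene's start.

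The best regions of members were not concentrated at starts. Within pooled rank 5000 the median distance to the member's own nearest start was 1309 bp, against 1060 bp for other genes. The summit lay within 500 bp of a start in 7 of the 29 (24.1%, other genes 28%). It lay inside the gene in 9 (31%, other genes 45.1%), upstream in 10 (34.5%, other genes 45.2%), and downstream beyond the gene's end in 10 (34.5%, other genes 9.76%). Neuropeptide genes are short, with a median length of 1019 bp against 2031 bp, so more of their window falls past the 3′ end. Among genes shorter than 2000 bp, a limit chosen after the data were seen, the downstream share was 40.9% of the 22 members and 22.5% of the 1792 other genes within rank 5000. That difference was not tested. Below this limit members were still the shorter, with a median length of 816 bp against 1208 bp for other genes. The member's own start was the nearest of any gene in 22 of the 29 (75.9%, other genes 68.5%).

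**Figure D4:**
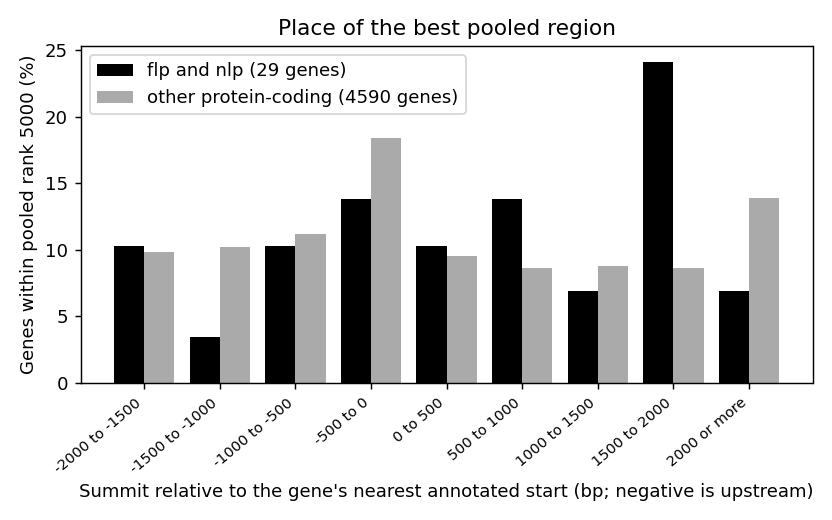
Position of the best pooled region relative to the gene's nearest annotated start (x axis, bins of bp, negative upstream) for the 29 neuropeptide genes and 4590 other genes within pooled rank 5000 (y axis, percent of each set). Members are most frequent from 1500 to 2000 bp downstream (24.1%), other genes within 500 bp upstream (18.4%).

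No pooled region was assigned to 20 members, 3 flp genes (flp-17, flp-23 and flp-33) and 17 nlp genes. Of these, 5 had no region in any of the 3 lists, namely nlp-5, nlp-56, nlp-63, nlp-101 and nlp-119. The lists hold a fixed number of regions, so a gene without one is below the end of the list and not shown to be unbound.

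Genes of the machinery that makes and releases the peptides had a larger share within rank 5000 than the peptide genes (26.6%), over longer windows. Per kb searched, they had fewer regions within that rank than the peptide genes. Neither difference was tested. Of 25 processing and dense-core vesicle genes, 3 (12%) lay within pooled rank 1000 and 11 (44%) within rank 5000, beside 5.25% and 23.1% of other genes. The median length searched was 7940 bp for these genes, against 4001 bp for the peptide genes and 4186 bp for other genes, and its part in the share was not tested. The density of regions within rank 5000 was 0.0573 per kb searched for the machinery, 0.0712 for the peptide genes and 0.0497 for other genes. The best-ranked were unc-13, a vesicle priming factor (22.2, rank 842, 13.5 in replicate 1 and 12.3 in replicate 2), and ida-1, a dense-core vesicle membrane protein (22, rank 896, 15 and 11.9). They were followed by rbf-1, the rabphilin gene (21.7, rank 979, 9.06 and 18.4), and unc-108, a Rab2 GTPase of vesicle maturation (20.4, rank 1354, 11 and 9.75), the replicate values in each case being the best in the gene's window. Within 100 bp of the pooled summit the values were 13.5 and 7.11 at unc-13, and 11 and 7.52 at unc-108. There ida-1 had a region in replicate 1 only (15) and rbf-1 in replicate 2 only (18.4). Within rank 1000 in both replicates lay 0 of the 25, beside 1.37% of other genes.

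In the pooled list, neuropeptide receptor genes had a lower share than other genes at rank 1000 and a higher one at rank 5000. In each single replicate their share within rank 1000 was the higher. It was 8.26% in replicate 1 (other genes 5.37%) and 7.34% in replicate 2 (other genes 5.45%). Of 109, 3 (2.75%, other genes 5.25%) lay within pooled rank 1000 and 37 (33.9%, other genes 23.1%) within rank 5000, with a median searched length of 5745 bp. The leading receptor gene was frpr-6, an RFamide-receptor-related gene, with 27.3 (rank 311), 6.64 in replicate 1 and 17.2 in replicate 2. The start of F21C10.9 was nearer the frpr-6 summit (959 bp) than that of frpr-6 (1507 bp). npr-14 followed with 25.1 (rank 460), 11.7 and 12.6. ntr-1, the receptor of the vasopressin-like peptide nematocin, had 23.7 (rank 596), 13.4 and 14.8 at best in its window. Within 100 bp of the pooled summit ntr-1 had a region in replicate 2 only (14.8). npr-12 had 21.3 (rank 1074), with 10.5 and 11.3 at best in its window, and 8.61 in replicate 1 at the pooled summit. Within rank 150 lay 0 of the 109, beside 0.881% of other genes.

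Insulin-like peptide genes, another secreted family searched over the same median length of 4001 bp, had a larger share than the FLP and NLP genes at the top of the list. Of 39 insulin-like genes, 4 (10.3%) lay within pooled rank 150, against 1 of 109 FLP and NLP genes (0.917%) and 0.881% of other genes. Within rank 5000 the shares were 28.2%, 26.6% and 23.1%. The difference was not tested. Of the 4 insulin-like genes within rank 150, ins-17 and ins-37 had another gene's start nearer the summit. At ins-17 that was rps-3A (236 bp, own start 1890 bp), and at ins-37 it was F08G2.5 (875 bp, own start 1601 bp). ins-39 had no replicate 1 region within 100 bp of the pooled summit. At ins-13 its own start was nearest and both replicates had a region.

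The letters under the summits were searched on both strands, within 50 bp of the summit, for the hexamer AGTGTG, the hexamer AGTGCA, the hexamer AGTGCG and the hexamer AGTACA, and for the pentamer GAGAG. The hexamer AGTGTG occurred in 0 of the 28 distinct member regions within rank 5000, beside 4.1% of all 5000 pooled regions within that rank. The count was likewise 0 for the hexamer AGTGCA (all regions 4.54%) and 0 for the hexamer AGTGCG (all regions 2.2%). AGTACA occurred in 2 member regions (7.14%, all regions 4.88%), those of nlp-70 and nlp-12. At least 1 of the 4 hexamers was present in 7.14% of member regions and 14.6% of all. GAGAG occurred in 4 member regions (14.3%, all regions 16.6%). Over all ranks, 12 of 85 member regions (14.1%) held a hexamer, beside 12.2% of all 30000. The median GC content of member windows was 37.6%, against 33.7% of all regions within rank 5000.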

How the data were processed

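Chromatin immunoprecipitation was measured in 2 biological replicates of whole L3 larvae. The authors deposited region lists on ce11, 1 per replicate and 1 pooled (30000 regions each, peaks with background), and 150 IDR peaks, with a signal value per region that is the authors' own. The aligner, peak caller, control use, read depth and IDR threshold are not given in the sources used here, so no counting interval can be given. The members and gene lists were chosen with earlier results of these data known. Regions were ranked by signal. A summit (region start plus offset, counted from 1) was assigned to every protein-coding gene holding it or with a start within 2000 bp, using Ensembl release 115 and RefSeq symbols. Named genes were those within pooled rank 1000 or within rank 1000 in both replicates, 3 on either side of rank 1000, the 3 widest replicate ratios, 13 preset peptide genes, and the 4 best-ranked processing and receptor genes. Of the listed names, 5 were not matched. Counts are descriptive, with no test. Windows, overlap distance, ownership, replicates and chromosome X were varied. Sequences come from the reference genome. The assignment was checked on simulated regions. Python 3.11.15, numpy 2.4.6 and scipy 1.17.1 were used.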

Additional observations from a re-analysis of the deposited data

How the results depend on the processing

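Counts moved mainly with the window around starts. Within pooled rank 1000 there were 5 members, and 1, 2 and 10 with windows of 500, 1000 and 5000 bp (other genes 3.36%, 3.99% and 9.58%), and 2 of 74 without X. In the single replicates the counts were 5 and 4. The difference from other genes at that rank, -0.66 percentage points, turned to 1.02 with nearest starts only and to 0.78 against other genes of like searched length, and ranged from -1.78 to -0.78 in single replicates. Within rank 5000 there were 29 members, and 14 with 500 bp and 51 with 5000 bp (other genes 14.9% and 39.5%), and the difference of 3.5 points turned to -2.08 with 500 bp, was 0.82 with 1000 bp, and was 7.25 with 5000 bp, 5.26 without X and 8.6 against genes of like searched length. Within rank 5000 in both replicates there were 10 members, and 1, 5 and 31 with windows of 500, 1000 and 5000 bp (other genes 4.73%, 5.8% and 19.5%), and 1 and 2 where the best summits had to lie within 100 or 200 bp (other genes 1.84% and 2.43%). The cause was not tested beyond the changed window itself. A region of both replicates lay at 23 rather than 14 pooled summits when 200 bp was allowed. The alternative with Ensembl names only and that with genes shorter than 2000 bp were chosen after seeing the data. No paired analysis was possible because there is 1 group and no test. With 2 replicates of unstated depth and signal scale, a weak site cannot be told apart from background.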
